A study of Mus musculus with 57 samples.

Results

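The strongest H3K27ac domains of the mouse cortex were the 500 regions of chromosomes 1 to 19 with the highest acetylation signal among 25348 regions that carried an H3K27ac peak in all 9 cortex libraries. Overlapping peaks of the 9 libraries were merged into 69410 regions, those with a peak in every library were kept, and each was given its level: the reads in H3K27ac peaks within the region, per 1000000 reads in H3K27ac peaks of chromosomes 1 to 19 of that library (RPM), averaged over the 9 libraries. The 500 members made up 1.97% of the regions and 11.9% of their summed width. Because the members were chosen by cortex H3K27ac levels, their cortex H3K27ac values, and the contrast of H3K27ac between tissues, are given as descriptions. The one check made on these values was whether a single library stood apart from its group.

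Acetylation of lysine 27 on histone H3 marks active promoters and enhancers, and long stretches of dense acetylation are often called super-enhancers, which tend to lie at genes that define a cell type and at genes that are strongly transcribed in many cells. H3K4me3 marks active promoters. H3K27me3 is laid down by the Polycomb complexes and marks genes that are kept silent, for instance genes of another tissue.

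The series profiled these 3 marks by chromatin immunoprecipitation and sequencing in PSAPP mice aged 13 months, a transgenic Alzheimer's disease model that carries a mutant human presenilin and a mutant chimeric mouse/human amyloid precursor protein. Brain cortex gave 9 libraries and gastrocnemius muscle gave 10 libraries for each mark, 57 in all. All mice carried the PSAPP label, were moved to single housing and a modified AIN-93 diet at 6 months, and no wild-type group was part of the series, so tissue is the comparison made here. Which promoters drive the transgenes is not stated in the sources used here. The labels do not give the sex of a mouse, and the sexes were not separated. Both samples are bulk tissue, in which fewer cells of a type and less signal per cell cannot be told apart.

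The tissue labels were checked against marker genes. All 15 genes of a pan-neuronal list had a start site inside an H3K4me3 peak in every cortex library, against 10 to 11 in the gastrocnemius libraries, where Snap25, Gria2, Grin1 and Nefl had none. Of 17 skeletal muscle genes, 16 to 17 had a start site inside an H3K4me3 peak in the gastrocnemius libraries and 1 to 4 in the cortex libraries, where the fast myosins Myh1, Myh2 and Myh4 had none.

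Some libraries stood apart. The H3K27ac library of cortex 9 held 3.94 M reads in peaks (M, 1000000), against a median of 17.5 M over the 9. Cortex libraries 1, 2, 6 and 7 were high at striatal genes, as described with the variable domains. The mouse of cortex library 5 was low at Prnp in every mark and in both tissues, also described further on. Reads in peaks ran from 9.50 to 19 M reads in the cortex and from 9.16 to 15 M reads in the gastrocnemius H3K4me3 libraries, and from 4.52 to 7.32 M reads and from 2.99 to 18.2 M reads in the H3K27me3 libraries.

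Both kinds of sequence that recur among the members are shown first, read from the GRCm38.p6 genome (mm10). The first kind is the start of genes. Of the promoters in a RefSeq table, 1107 belonged to genes with a start site in a member. Their median GC content over the 250 bases before the start site was 60.4%, against 52.0% over all 27025 promoters, with a median of 15 CpG against 6. Of these, 4 are printed 5′ to 3′ because the results turn on their domains: Bcl11b and Adcy5, the most variable between mice, Rplp0, the least variable, and Prnp. Capitals mark any match, on either strand, to 5 words: GGGCGG, the core that Sp1 binds, the TATA box word TATAAA, the cAMP response element TGACGTCA, the site of the AP-1 factors TGANTCA, and the E-box word CAGATG. None of the words contains another.
Bcl11b, chr12:108003415-108003664, minus strand: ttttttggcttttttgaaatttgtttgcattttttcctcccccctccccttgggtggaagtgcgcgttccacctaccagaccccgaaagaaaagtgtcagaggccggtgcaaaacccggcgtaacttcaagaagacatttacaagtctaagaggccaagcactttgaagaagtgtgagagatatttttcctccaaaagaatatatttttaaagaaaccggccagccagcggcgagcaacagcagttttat
Adcy5, chr16:35154614-35154863, plus strand: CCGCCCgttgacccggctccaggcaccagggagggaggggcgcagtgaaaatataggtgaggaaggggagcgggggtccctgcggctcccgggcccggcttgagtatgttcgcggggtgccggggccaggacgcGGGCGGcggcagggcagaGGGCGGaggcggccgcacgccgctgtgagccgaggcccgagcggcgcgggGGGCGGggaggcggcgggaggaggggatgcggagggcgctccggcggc
Rplp0, chr5:115559217-115559466, plus strand: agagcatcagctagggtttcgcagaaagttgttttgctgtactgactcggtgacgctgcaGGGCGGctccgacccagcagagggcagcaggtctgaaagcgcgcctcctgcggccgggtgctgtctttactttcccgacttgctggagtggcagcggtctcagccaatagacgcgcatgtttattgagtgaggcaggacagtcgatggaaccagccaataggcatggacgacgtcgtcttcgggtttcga
Prnp, chr2:131909678-131909927, plus strand: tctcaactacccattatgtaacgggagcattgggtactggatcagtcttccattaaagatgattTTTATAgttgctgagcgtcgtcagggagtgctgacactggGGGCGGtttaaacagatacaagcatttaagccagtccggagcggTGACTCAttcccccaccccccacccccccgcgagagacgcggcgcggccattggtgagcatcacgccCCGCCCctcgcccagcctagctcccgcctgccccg

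GGGCGG was present in 60.7% of the member promoters and in 32.9% of all promoters, and the cAMP response element in 2.8% against 1.6%. The TATA box word was present in 5.6% against 13.0%, the AP-1 site in 4.9% against 6.9%, and the E-box word in 10.6% against 14.5%. The Adcy5 promoter held 4 matches to the Sp1 core at a GC content of 78.0%, while the Bcl11b promoter held no match to any of these words at 44.8%. These are descriptions of letters, and GC content was not matched.

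The second kind is a stretch found in similar form in several members. The member with the highest level of all, 1.2 kb on chromosome 2 (chr2:98666201-98667400), lay 1199 kb from the nearest start site, that of Lrrc4c, and outside any gene body. The domain on chromosome 9 (chr9:3014601-3038400, rank 188) matched itself best at a spacing of 234 bases, with 73.9% of its bases identical. The best spacing was 485 bases in the rank 1 domain, at 53.8%, 351 bases in the domain of rank 340 on chromosome 14 (chr14:19415601-19419800), at 58.3%, and 72 bases in the Sfi1 domain, at 26.3%. A stretch of 234 bases from the rank 1 domain is printed with its best match in the domains of rank 188 and rank 340, 69.2% and 66.2% identical to it.
Rank 1, chr2:98666901-98667134, plus strand: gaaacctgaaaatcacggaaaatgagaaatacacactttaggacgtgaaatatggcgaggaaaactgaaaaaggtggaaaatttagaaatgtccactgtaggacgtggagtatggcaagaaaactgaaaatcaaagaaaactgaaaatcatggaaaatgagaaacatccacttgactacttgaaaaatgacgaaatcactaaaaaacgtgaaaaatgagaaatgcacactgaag
Rank 188, chr9:3035452-3035685, minus strand: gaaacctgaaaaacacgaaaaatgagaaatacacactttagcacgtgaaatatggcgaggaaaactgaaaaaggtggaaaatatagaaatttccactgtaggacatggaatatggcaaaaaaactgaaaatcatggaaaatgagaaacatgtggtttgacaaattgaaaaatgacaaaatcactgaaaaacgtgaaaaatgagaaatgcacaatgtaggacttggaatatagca
Rank 340, chr14:19418197-19418430, plus strand: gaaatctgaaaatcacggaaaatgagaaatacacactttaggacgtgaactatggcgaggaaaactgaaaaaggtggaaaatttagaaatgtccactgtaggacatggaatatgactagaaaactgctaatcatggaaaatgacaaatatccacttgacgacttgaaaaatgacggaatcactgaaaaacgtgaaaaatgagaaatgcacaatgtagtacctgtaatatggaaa

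These 3 domains and the Sfi1 domain on chromosome 11 (chr11:3130201-3209400, rank 32) were the 4 members with a mean above 1000 RPM of H3K27me3 in both tissues, out of 6 such regions among the 25348. The rank 1 domain reached 2279 to 3497 RPM of H3K4me3 and 2241 to 7217 RPM of H3K27me3 in the cortex libraries, and 3129 to 5217 and 1955 to 9358 RPM in gastrocnemius. It was therefore high for marks that are known for opposite states of a gene, in every library. Its density of H3K27ac was 819 RPM per kb, while no member outside these 4 exceeded 16.8 RPM per kb. The genome reference masks 79.8%, 95.8% and 81.9% of the domains of rank 1, 188 and 340 as repeats, and 35.1% of the Sfi1 domain, whose best match to that stretch was 41.0% identical. The median over the members was 18.6%, against 19.2% over all regions. The part of the repeats in these levels was not tested, and the Sfi1 gene has near-identical copies, so its reads are uncertain. Values without the 4 domains are given where they move a result.

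As a set the members were long. Their median width was 74.5 kb, from 1.2 to 278.6 kb, against 9.0 kb over all regions and 47.7 kb over the 500 regions ranked next. The median level was 286 RPM, against 19.4 RPM over all regions and 159 RPM in the next 500. Density differed less than width: 3.96 RPM per kb in the members at the median, 3.38 in the next 500 and 2.11 over all regions. Of the 500 members, 363 were also among the 500 widest regions, and 29 were among the 500 densest per kb. Ranking by density instead would thus have given another set, with a median width of 4.8 kb. The median member was covered over 93.9% of its width by at least 5 libraries and over 73.2% by all 9, against 71.4% and 37.2% over all regions.

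The limit fell in a smooth slope of levels. Just inside it were the domains of the potassium channel gene Kcnc1 at 198.28 RPM, Rmnd5b at 198.25 RPM and the semaphorin receptor gene Plxnd1 at 198.02 RPM. Just outside were H13 at 197.63 RPM, Atxn7l2 at 197.46 RPM and Ski at 197.18 RPM.

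**Figure D1:**
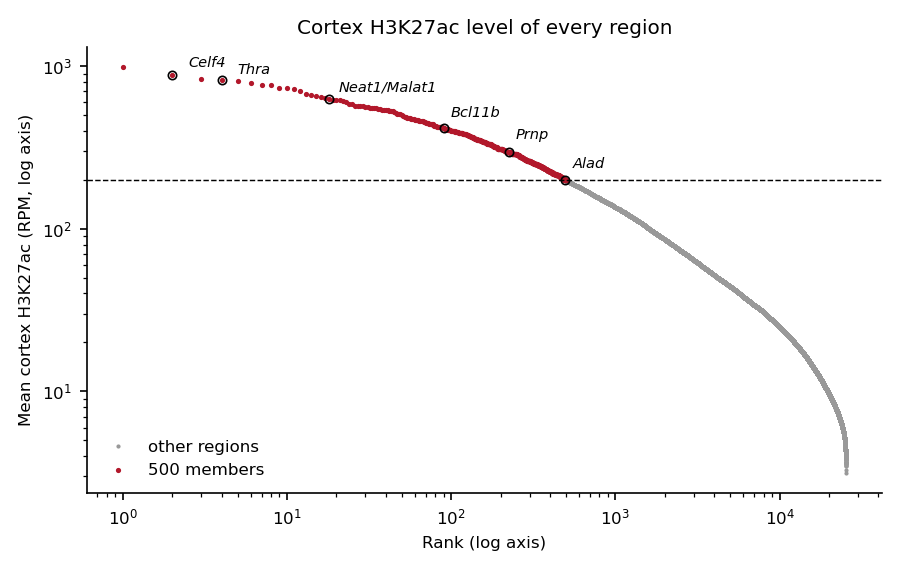
Mean cortex H3K27ac level (RPM, log axis) of all 25348 regions against their rank (log axis), the 500 members in red above the dashed limit of 198 RPM and 6 named members circled. The levels fall smoothly through the limit, from 983 RPM at rank 1.

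A total of 1495 curated genes had a start site in a member, 5.99% of the 24963 such genes on the autosomes, while 15513 had one in any region. Width was not matched in the counts per member. At least 2 genes started in 321 members and at least 5 in 119. A start site was missing from 52 members (10.4%), against 16.6% of the next 500 and 53.8% of all regions. GC content was 50.9% at the median, against 49.8% in the next 500 and 46.8% over all regions, while the ratio of observed to expected CpG was 0.254 against 0.252. Chromosome 11 held 60 members, chromosome 2 held 45 and chromosome 7 held 43, while chromosomes 3 and 13 held 7 each.

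The gene at the top of the list after the rank 1 domain was Celf4, which encodes an RNA-binding protein of neurons. Its domain on chromosome 18 (chr18:25481601-25760200) was the widest of all at 278.6 kb and ran from 687 to 997 RPM over the 9 cortex libraries, with a median of 940 RPM. Libraries 3, 4 and 8 were the low ones, at 735, 769 and 687 RPM. Next came a 202.8-kb domain mostly inside Ttc7b, with the start site of Gm10432, at 838 ± 76.8 RPM (SD, n = 9). Thra, the thyroid hormone receptor alpha gene, shared its domain with 7 other genes, among them the clock repressor gene Nr1d1, at 818 ± 48.1 RPM. Gnao1, which encodes the Go subunit that couples many neuronal receptors, stood at 813 ± 80.4 RPM, and the inner part of Trio, a guanine nucleotide exchange factor of axon growth, at 788 ± 62.9 RPM over 246.8 kb.

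Other members of the 20 highest fell into a few roles. Genes of membrane excitability and calcium were Atp2b2, a plasma membrane calcium pump, at 699 ± 74.7 RPM, and Kcnab2, a potassium channel beta subunit, at 671 ± 56.5 RPM. Genes of the synapse and its traffic were Baiap2, a postsynaptic scaffold, at 719 ± 54.6 RPM, Iqsec1 at 633 ± 71.5 RPM and the adaptor subunit gene Ap2a1 at 618 ± 37.0 RPM. Transcription regulators were Tcf4 at 766 ± 163 RPM, Rai1 at 733 ± 51.5 RPM, Nfix at 728 ± 190 RPM, Ell at 668 RPM and Zmynd8 at 623 RPM. Genes used in most cells were also present: the nuclear long noncoding RNA genes Neat1 and Malat1 shared a domain at 624 ± 35.8 RPM. Gm14486 stood at 655 RPM and Adap1 at 648 RPM.

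**Figure D2:**
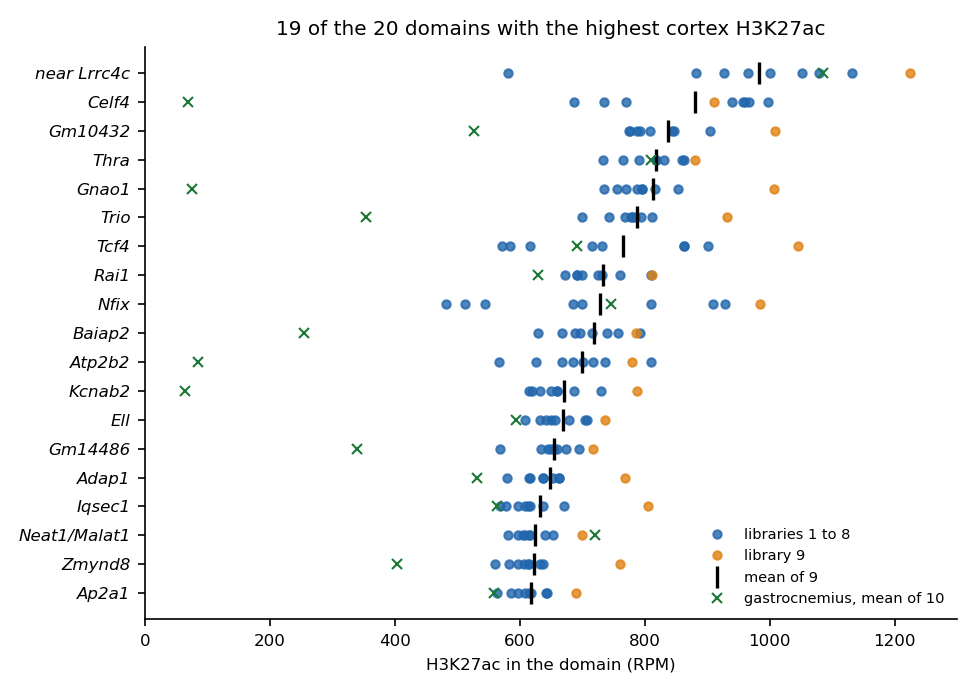
H3K27ac (RPM) of 19 of the 20 highest domains in each of the 9 cortex libraries (points, library 9 in orange), their mean (bar) and the mean of the 10 gastrocnemius libraries (cross). The gastrocnemius mean lies near the cortex values for Thra and Nfix and below 100 RPM for Celf4, Gnao1, Atp2b2 and Kcnab2, and library 9 is the highest at Gnao1, Trio, Adap1, Iqsec1 and Zmynd8, among others.

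Some of the 52 domains without a start site lay inside a gene and some between genes. Besides the rank 1 domain and the inner part of Trio, 42.1 kb from the start of Otulinl, the strongest were an inner part of Tcf4, 144 kb from its nearest curated start site, an inner part of Kalrn at 466 ± 69.4 RPM, and a domain between genes at 462 ± 44.1 RPM, 30.8 kb from A330074K22Rik. Kalrn encodes a guanine nucleotide exchange factor of dendritic spines. The widest domains after Celf4 and Trio were those of Myt1l at 222.6 kb, which also held the start of Pxdn, Ttc7b at 202.8 kb and Kcnab2 at 202.4 kb.

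Marker lists of cell types were read as counts. Of 24963 autosomal genes 5.99% started in a member. Among pan-neuronal genes it was 3 of 14: the kinase gene Camk2a at 475 ± 37.8 RPM, Rbfox3 (NeuN) at 422 ± 49.4 RPM and the neuronal enolase gene Eno2 at 246 ± 19.9 RPM. Among factors of cortical projection neurons it was 6 of 19, with Bcl11a at 446 ± 60.1 RPM, Bcl11b at 414 ± 160 RPM, Neurod2 at 408 ± 27.3 RPM, Pou3f3 at 250 RPM and Foxp1 at 212.3 RPM. Among synaptic scaffold and vesicle genes it was 5 of 15, among them Dlg4, Nrxn2, Shank1 and Dlgap3, from 216 to 303 RPM.

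Other cell types were counted in the same way. Of 18 genes of the oligodendrocyte lineage 4 started in a member, namely the myelin regulator Myrf at 468 ± 50.4 RPM, Sox8 at 396 ± 31.4 RPM, Sox10 at 321 ± 20.2 RPM and Mbp at 257 ± 25.8 RPM. These are levels of whole domains: the Myrf domain lay mostly in Dagla (55.1% of its width) and the Sox8 domain mostly in Lmf1 (59.6%). Astrocytes gave 1 of 18, and microglia 1 of 16, Aif1 at 370 ± 27.7 RPM, in a gene-dense domain whose longest gene was Prrc2a. Inhibitory interneurons gave 0 of 16, endothelium and pericytes 0 of 11 and skeletal muscle 0 of 17.

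Lists not tied to a cell type were also counted. Of 16 chromatin and transcription regulators 6 started in a member: Rai1, Nfix, Zeb2 at 569 ± 86.9 RPM, Zmiz1 at 385 RPM, Hdac5 at 244 RPM and Klf9 at 219 RPM. Housekeeping genes gave 4 of 16, with Gapdh at 467 ± 24.2 RPM, Hsp90ab1 at 293 ± 12.7 RPM and Rplp0 at 255 ± 6.55 RPM. Immediate early genes, which neurons switch on with activity, gave 3 of 18, with Nr4a1 at 401 ± 19.3 RPM, Per1 at 335 ± 22.9 RPM and Junb at 209 ± 18.1 RPM. Of 11 genes of amyloid and tau processing Prnp at 296 ± 93.4 RPM and Apbb1 at 204 ± 18.3 RPM were in members, and of 7 long noncoding RNA genes only Malat1 and Neat1. The lists were chosen with results of these data known, so their shares are descriptions.

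The members took 14.9 to 18.5% of the autosomal reads in H3K27ac peaks of the cortex libraries, with a median of 16.0%. Library 9, the shallow one, gave the 18.5%, and libraries 1 to 8 lay between 14.9 and 16.6%. In the gastrocnemius libraries the same regions took 10.6 to 12% of H3K27ac reads. For H3K4me3 the share was 10.9 to 11.3% in cortex and 10.5 to 11.7% in gastrocnemius, so the ranges overlapped. For H3K27me3 it was 1.70 to 2.82% in cortex and 2.59 to 5.71% in gastrocnemius, and without the 4 domains above 1000 RPM of H3K27me3 0.714 to 0.962% and 1.98 to 3.53%, so without them the tissues did not overlap.

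The H3K27ac level of the members was then set beside that in gastrocnemius, as a description, since cortex H3K27ac chose the members. In 283 members all 9 cortex libraries were above all 10 gastrocnemius libraries, where 38.0% of all regions were, and in 20 members all were below, where 8.58% of all regions were. In 197 the ranges overlapped. At the means, 156 members (31.2%) were at least 2-fold higher in cortex, against 36.7% of all regions. In gastrocnemius 264 members had a mean above the limit of 198 RPM that had defined the set in cortex. How many of all regions did so was not counted. A gastrocnemius H3K27ac peak was found in every library in 472 members (69.1% of all regions) and in none in 10 members (15.4% of all regions). Width was not matched in these shares.

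The strongest member without any gastrocnemius H3K27ac peak was that of Add2. Add2, the beta subunit of adducin in the membrane skeleton, ran from 380 to 509 RPM in the cortex libraries, with a median of 462 RPM. The stronger of the domains with a start site of Rbfox3, at rank 85, ran from 351 to 514 RPM, with a median of 424 RPM. The next was a domain partly inside Adgrb1 (47.1% of its width), 5.92 kb from the start of Mroh4, at 327 ± 30.3 RPM. It was followed by 9530059O14Rik at 298 ± 59.1 RPM and an inner part of the cell adhesion gene Dscaml1 at 259 ± 28.4 RPM. All 10 gastrocnemius libraries were at 0 in each of these 5, so no fold is given.

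Genes high in both tissues formed the other end. Zbtb16, a zinc finger repressor that responds to glucocorticoids, reached 782 to 1613 RPM in gastrocnemius, with a median of 1139 RPM, and 280 to 985 RPM in cortex, with a median of 637 RPM. The ranges overlapped through cortex library 9, the highest of its group. Thra stood at 810 ± 72.2 RPM (n = 10) in gastrocnemius, Nfix at 746 ± 96.2 RPM and the Neat1 and Malat1 domain at 720 ± 62.8 RPM. The rank 1 domain reached 1085 ± 195 RPM there.

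**Figure D3:**
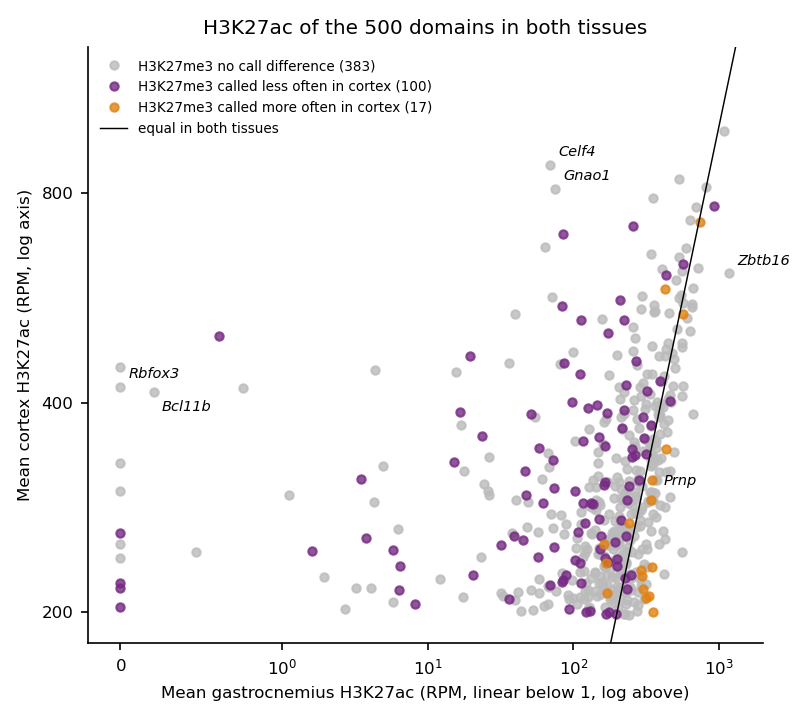
Mean cortex H3K27ac (RPM, log axis) against mean gastrocnemius H3K27ac (RPM, linear below 1 and log above) of the 500 domains, colored by the test of H3K27me3 peak calls, with a line where both are equal. The 100 domains with H3K27me3 called less often in cortex spread over the whole range of gastrocnemius levels, with a median of 124 RPM, and the 17 called more often have a median of 332 RPM.

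H3K4me3 was not used to choose the members, so it was tested. An H3K4me3 peak was found in every cortex library in 462 members (51.3% of all regions) and in none in 14 (38.7%), and in every gastrocnemius library in 460 (50.7%) and in none in 10 (35.1%). In the next 500 regions the counts were 416 and 42 in cortex and 414 and 34 in gastrocnemius. The mark covered 17.3% of a member at the median in cortex and 24.7% in gastrocnemius, while H3K27ac covered 91.3% and 87.7%, so most of the acetylated width was outside H3K4me3 peaks.

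Reads were compared between tissues with edgeR's quasi-likelihood test in regions with an H3K4me3 peak in all 19 libraries, at a false discovery rate (FDR) under 0.1 over all 11642 regions tested. Of 445 members tested, 193 (43.4%) were higher in cortex, where 39.1% of all tested regions were, and 188 (42.2%) were lower, where 37.7% were. The 381 of 445 members called in either direction compare with 76.7% of all tested regions. The median log2 difference, cortex over gastrocnemius, was 0.01 in the members and 0.01 over all. In each direction the share of called members was thus slightly above that of all tested regions, with width not matched. Called members with at least a 2-fold difference were 57 higher, where 9.65% of all tested regions were, and 21 lower, where 6.57% were.

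The 5 largest rises in cortex were those of Elfn2, Dtx1, Mir9-3hg, C130071C03Rik and Pgbd5. Elfn2, a postsynaptic leucine-rich repeat protein, had 168 to 202 RPM of H3K4me3 in cortex (median 183) and 4.37 to 8.86 RPM in gastrocnemius (median 6.73), a log2 difference of 4.73 (SE 0.09, edgeR adjusted p = 2.18e-21). Both microRNA-9 host genes among the members followed: C130071C03Rik, which hosts Mir9-2, had 553 to 610 against 29.1 to 44.3 RPM, and Mir9-3hg had 370 to 421 against 9.56 to 33.9 RPM. Their log2 differences were 3.88 (SE 0.06) and 3.96 (SE 0.14). The Dtx1 domain was higher by 4.06 (SE 0.10) and that of Pgbd5, a domesticated transposase, by 3.79 (SE 0.07) on the log2 scale. In each of these 5 every cortex library was above every gastrocnemius library.

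The largest falls in cortex were partly inside genes rather than at their starts. The domain that held the start of Angptl2, mostly inside Ralgps1, had 6.97 to 10.3 RPM of H3K4me3 in cortex (median 9.01) and 45.6 to 79.3 RPM in gastrocnemius (median 63.7), and its log2 difference was -2.87 (SE 0.11, edgeR adjusted p = 2.94e-16). The Mir29a domain in the noncoding gene Lncpint differed by -2.63 (SE 0.18), an inner part of Itpkb by -2.57 (SE 0.21), the domain near A330074K22Rik by -2.28 (SE 0.20) and an inner part of Ttc7 by -2.22 (SE 0.20). Their H3K27ac in gastrocnemius was 203 RPM at Angptl2 and between 351 and 491 RPM at the other 4, so all 5 were acetylated domains in that tissue too.

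Of the domains highest in H3K27ac, Celf4 was higher in cortex H3K4me3 by 1.70 (SE 0.07), Gnao1 by 2.19 (SE 0.04), Baiap2 by 1.54 (SE 0.05), Atp2b2 by 1.23 (SE 0.04) and Kcnab2 by 0.88 (SE 0.03) on the log2 scale. The projection neuron gene Bcl11a was higher by 2.25 (SE 0.05), Camk2a by 0.96 (SE 0.08) and Neurod2 by 0.36 (SE 0.08). Zbtb16 was lower in cortex, at -1.50 (SE 0.15), as were Nfix, at -0.62 (SE 0.17), and the Neat1 and Malat1 domain, at -0.56 (SE 0.05). All of these were called by edgeR at an FDR under 0.1. Over the 445 members the log2 tissue ratios of H3K27ac and H3K4me3 had a Pearson r of 0.823, a description over domains that share the same libraries.

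Whether a peak was called at all was compared with Fisher's exact test over the 25348 regions. H3K4me3 was called more often in cortex in 8 members (1.6%), where 5.22% of all regions were, and less often in 8 (1.6%), where 5.76% were. With the libraries of a mouse taken as a pair, an exact sign test called 4 and 5, beside 618 and 532 of all regions. Where a call needed 25% of the domain covered, 20 members were called more often and 106 less often in cortex, beside 1143 and 1998 of the 25348 regions, so the balance of both directions rests on that choice. The inner part of Kalrn, Add2 and the smaller of both Phactr3 domains (rank 427) had a peak in 9 of 9 cortex libraries and in 0 of 10 gastrocnemius libraries (Fisher's exact test, adjusted p = 0.00025 each). The Rbfox3 domain of rank 85 had a peak in 9 of 9 and 3 of 10 (Fisher's exact test, adjusted p = 0.0333). For the domain partly inside Adgrb1 it was 9 of 9 and 4 of 10 (Fisher's exact test, adjusted p = 0.0986). Conversely, the Ttc7b and Galnt2 domains had a peak in 0 of 9 cortex libraries and 10 of 10 gastrocnemius libraries (adjusted p = 0.00025 each), although Ttc7b was at rank 3 in cortex H3K27ac. At Pknox2 it was 2 of 9 against 9 of 10, at Ctdspl, 5.4 kb from Mir26a-1, 1 of 9 against 8 of 10, and at Klhl29 3 of 9 against 10 of 10.

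The lists were read over all regions in the same tests, not over the members alone. Of 10 tested regions with a pan-neuronal start site 8 were higher in cortex H3K4me3 and 2 lower, of 15 of projection neuron factors 11 and 2, and of 14 of synaptic genes 11 and 1. Oligodendrocyte genes gave 9 and 2 of 12, astrocyte genes 9 and 8 of 18, endothelial and pericyte genes 1 and 8 of 9, and immediate early genes 5 and 11 of 18. Microglial genes gave 2 and 3 of 5, interneuron genes 4 and 4 of 8, housekeeping genes 4 and 9 of 16, chromatin regulators 7 and 6 of 16, and amyloid and tau genes 7 and 1 of 11. Over all tested regions 39.1% were higher and 37.7% lower. For H3K27me3, where 37.5% of all tested regions were higher and 32.5% lower, pan-neuronal genes gave 0 higher and 5 lower of 6, synaptic genes 0 and 3 of 3, projection neuron factors 3 and 4 of 10 and oligodendrocyte genes 5 and 4 of 10. Interneuron genes gave 5 higher and 0 lower of 7, astrocyte genes 4 and 0 of 4, microglial genes 3 and 0 of 4, and endothelial and pericyte genes 2 and 0 of 3.

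For H3K27me3, a peak was found in every cortex library in 121 members (10.2% of all regions) and in none in 251 (69.7%), and in every gastrocnemius library in 203 (15.3%) and in none in 165 (57.9%). In the next 500 regions the counts were 80 and 280 in cortex and 145 and 210 in gastrocnemius. Members are wider than other regions, and width was not matched.

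Where an H3K27me3 peak was present in all 19 libraries, reads were tested as for H3K4me3. Only 96 of the 500 members passed that filter, so these counts describe members marked in both tissues. In cortex 12 of the 96 (12.5%) were higher, where 37.5% of the 1663 regions tested were, and 65 (67.7%) were lower, where 32.5% were. The 77 of 96 members called in either direction compare with 69.9% of all tested regions. The median log2 difference was -0.76 in the 96 members and 0.04 over all 1663. At least a 2-fold fall was called in 40 of the 96 members, where it was called in 10.3% of all tested regions, and at least a 2-fold rise in 0, where it was called in 2.83%. By DESeq2 12 rose and 65 fell, beside 599 and 562 of the 1663. With libraries scaled to their reads in autosomal peaks instead of TMM factors, the median over all regions moved to -0.28, 5 members were higher and 76 lower, and over all regions 161 were higher and 727 lower. With uncalled libraries entered at 0 reads, 228 members could be tested, of which 30 were higher and 165 lower, beside 1287 and 2113 of 4811 regions. Without cortex libraries 1, 2, 6 and 7 it was 9 and 63 of 96, beside 552 and 530 of 1663.

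The 5 largest falls were at Elfn2, Add2, Adgrb1, Nfasc and Kcnab2, whose mean H3K27ac was between 0 and 63.5 RPM in gastrocnemius. Elfn2 had 13.3 to 37.5 RPM of H3K27me3 in cortex (median 22.5) and 171 to 374 RPM in gastrocnemius (median 290), a log2 difference of -3.26 (SE 0.15, edgeR adjusted p = 3.15e-13). Add2 had 7.23 to 51.0 RPM and 215 to 405 RPM, a log2 difference of -3.20 (SE 0.24). The domain at the start of Adgrb1, a synaptic adhesion receptor, differed by -2.94 (SE 0.18), that of Nfasc, which organizes the axon initial segment and the nodes of Ranvier, by -2.67 (SE 0.29), and Kcnab2 by -2.66 (SE 0.10). Kcnab2 had 65.2 to 115 RPM in cortex and 299 to 797 RPM in gastrocnemius, beside 671 and 63.5 RPM of H3K27ac. In each of these 5 the tissues did not overlap.

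Further named members were lower too. Celf4 was lower in cortex by a log2 difference of -2.04 (SE 0.21), Bcl11a by -1.83 (SE 0.18), Mir9-3hg by -1.64 (SE 0.15), Rbfox3 (rank 85) by -1.34 (SE 0.12), Bcl11b by -0.57 (SE 0.18) and Camk2a by -0.45 (SE 0.13). Each was called by edgeR at an FDR under 0.1. Neurod2 differed by -0.09 (SE 0.09) and was not called. The filter of this test requires an H3K27me3 peak in every cortex library, so peaks at these genes in cortex were given by the filter. Rbfox3 carried 88.6 to 178 RPM in the 9 cortex libraries and Bcl11b 127 to 337 RPM, in tissue that also carried their H3K27ac.

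The rises were smaller. Gm45928 was higher in cortex by 0.90 (SE 0.16), with 48.6 to 65.7 RPM against 20.3 to 47.5 RPM, Notch1 by 0.83 (SE 0.22), the Sfi1 domain by 0.77 (SE 0.09) and the potassium channel gene Kcnn1 by 0.64 (SE 0.23) on the log2 scale. These 4 carried H3K27ac above 200 RPM in the gastrocnemius mean. Without TMM factors the members higher in cortex were 5, as given above. Over the 96 members the log2 tissue ratios of H3K27ac and H3K27me3 had a Pearson r of -0.574, as a description.

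Calls of H3K27me3 peaks were tested in all 500 members, and falls outnumbered rises there, as they did over all regions. Width was not matched in the shares that follow. A peak was called less often in cortex in 100 members (20%), where 11.1% of all regions were, and more often in 17 (3.4%), where 3.50% were. With the libraries of a mouse taken as a pair, the exact sign test over 9 mice cannot go below p = 0.00391 and called 0 members, at a smallest adjusted p of 0.103. At an unadjusted p under 0.05 it had 105 members, 92 lower and 13 higher in cortex, beside 3203 of all regions in either direction. Without cortex libraries 1, 2, 6 and 7, Fisher's test called 76 less and 13 more often, beside 1896 and 614 of the 25348 regions. Where a call needed 25% of the domain covered, it called 82 less and 0 more often, beside 2620 and 701 of the 25348 regions. Among the strongest members called less often were Baiap2, with a peak in 0 of 9 cortex and 10 of 10 gastrocnemius libraries (Fisher's exact test, adjusted p = 0.000295), Atp2b2 with 2 and 10 (0.00807), Iqsec1 with 0 and 9 (0.00184) and Myo18a with 0 and 10 (0.000295).

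Of these, Atp2b2 had a large signal in gastrocnemius, 297 to 631 RPM with a median of 464 RPM, beside 0 to 11.8 RPM in cortex. The others had little: Baiap2, Iqsec1 and Myo18a had means of 27.6 to 45.8 RPM of H3K27me3 in gastrocnemius, beside 255 to 563 RPM of H3K27ac there. Among the strongest called more often in cortex were Nfix with 7 of 9 and 1 of 10 (Fisher's exact test, adjusted p = 0.0444), and Lncppara, Ankrd13b and Gdpd3 with 9 and 1 each (0.00184). Lncppara had 20.8 to 40.9 RPM in cortex, a low level beside 536 RPM of H3K27ac.

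The levels of the members varied between mice about as much as those of the next 500, and less than those of all regions at the median. Level and width were not matched in this comparison. The coefficient of variation of H3K27ac over the 9 cortex libraries was 8.18% at the median, from 2.57 to 38.7%, against 8.82% in the next 500 and 16.1% over all regions. The steadiest domains were those of Rplp0 at 2.57%, from 246 to 266 RPM, and of the kinase gene Akt1 at 3.39%, Abca2 at 3.56%, Aldh3b1 at 3.58% and Hnrnpul2 at 3.84%.

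The most variable was Bcl11b at 38.7%. Bcl11b (Ctip2) is a zinc finger factor of deep-layer cortical neurons that project below the cortex and of medium spiny neurons of the striatum. Its domain ran from 239 to 645 RPM, with a median of 338 RPM. Libraries 7, 1, 2 and 6 were the high ones, at 645, 623, 545 and 474 RPM, and the other 5 lay between 239 and 338 RPM. Adcy5, an adenylyl cyclase most abundant in the striatum, had a coefficient of variation of 32.7%, with the same 4 libraries at 393 to 538 RPM and the others at 222 to 317 RPM.

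The other variable domains ran the opposite way or in a way of their own. Zbtb16, at 32.3%, was lowest in libraries 7, 1 and 2, at 280, 454 and 498 RPM, with 587 RPM in library 6 and 637 to 985 RPM in the other 5. An inner part of Gabbr2, which encodes a subunit of the GABA-B receptor, 23.6 kb from the start of Tbc1d2, was at 29.6%, with 263 to 438 RPM in libraries 1, 2, 6 and 7 and 450 to 640 RPM in the others. Nfix likewise had 481 to 686 RPM in the 4 libraries and 699 to 984 RPM in the others. Prnp, at 31.5%, varied through 1 mouse and is described below.

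Values of cell markers moved with this. A list of 20 genes of striatal medium spiny neurons, drawn up after Bcl11b and Adcy5 had been seen, had 15 genes with a start site in a region, while Drd2, Penk, Tac1, Six3 and Isl1 had none. Of the 20, the G protein gene Gng7 at 421 ± 46.8 RPM and Ppp1r1b, in the Neurod2 domain at 408 RPM, started in a member. The summed H3K27ac of the 15 genes was 1698 to 1985 RPM in libraries 1, 2, 6 and 7 and 1295 to 1484 RPM in the other 5, and the summed H3K4me3 was 1837 to 2018 RPM against 1410 to 1637 RPM. In 10 of the 15 genes for H3K27ac and 11 for H3K4me3 the 4 libraries were all above the other 5. The sum of 13 inhibitory interneuron genes was likewise 537 to 830 RPM of H3K27ac in the 4 libraries and 277 to 369 RPM in the others, while that of 14 pan-neuronal genes overlapped, at 2304 to 2391 and 1985 to 2648 RPM. The sum of 18 astrocyte genes ran the other way for H3K4me3, at 1665 to 1826 RPM in the 4 libraries and 1849 to 2125 RPM in the others, and overlapped for H3K27ac, at 1395 to 1598 and 1549 to 1922 RPM. The part of these cells in the values of the members was not tested. In 22 members (4.4%) the 4 libraries were all above the other 5 in H3K27ac, where 4.54% of all regions were, and in 18 (3.6%) all below, where 4.71% were. Among the first were Nrxn2, Kcnj4, Mn1 and Bcr beside Bcl11b and Adcy5. Among the second were Tcf4, Zeb2, Mbp and Nfix.

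Other marks of the same mice are set beside H3K27ac at 3 of these domains, as a description, since the domains were picked for their spread in H3K27ac and the libraries fall into separate groups. At Bcl11b, H3K4me3 was 229 to 281 RPM in libraries 1, 2, 6 and 7 and 101 to 178 RPM in the other 5, which did not overlap. H3K27me3 at Bcl11b ran the other way, at 127 to 239 RPM in the 4 libraries and 214 to 337 RPM in the others, and the ranges overlapped through libraries 6 and 8. At Adcy5, H3K4me3 was 214 to 266 RPM in the 4 libraries and 105 to 157 RPM in the others.

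Zbtb16 had 94.9 to 140 RPM of H3K4me3 in the 4 libraries and 167 to 227 RPM in the others, the same order as its H3K27ac. In the 462 members with H3K4me3 in every cortex library, H3K27ac and H3K4me3 were correlated over the 9 mice. The median Pearson r was 0.241, against 0.254 over all such regions. It was -0.03 in the 25% of members with the lowest coefficient of variation and 0.663 in the 25% with the highest, as a description.

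**Figure D4:**
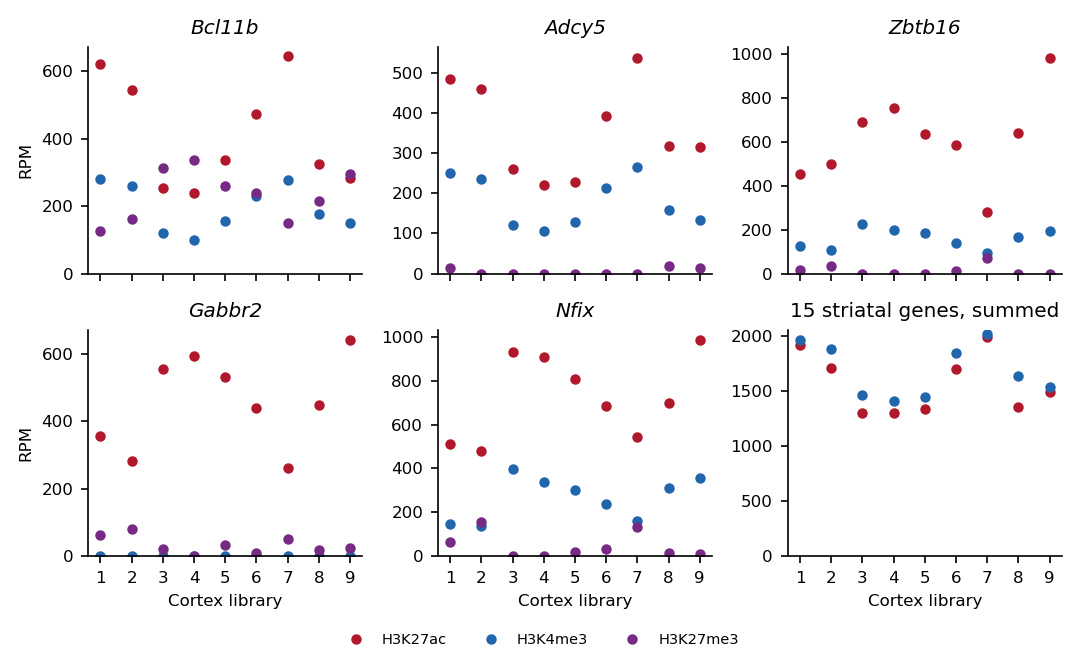
RPM of 3 marks in the 9 cortex libraries at 5 variable domains and, at the lower right, the summed RPM of H3K27ac and H3K4me3 over 15 striatal genes. Libraries 1, 2, 6 and 7 are high at Bcl11b, Adcy5 and the striatal genes and low at Gabbr2 and Nfix, where H3K4me3 at Gabbr2 is at 0.

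The Prnp domain (chr2:131900601-131918200, 17.6 kb, rank 224) set 1 mouse apart. Prnp encodes the prion protein, which is abundant in neurons. Its H3K27ac in cortex was 62.3 RPM in library 5 and 285 to 388 RPM in the other 8, with a median of 328 RPM, 5.26 times as much. H3K4me3 was 106 RPM against 463 to 597 RPM, and H3K27me3 was at 0 against 350 to 538 RPM. In gastrocnemius the library whose deposited file name carries the same mouse name, library 6, had 56.7 RPM of H3K27ac against 316 to 544 RPM, 61.6 RPM of H3K4me3 against 347 to 482 RPM, and no H3K27me3 peak against 325 to 605 RPM. In each of the 6 groups this mouse was the lowest, and its value lay outside the range of the others.

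In the other mice reads in peaks of all 3 marks were thus mapped to the Prnp domain in both tissues. Whether all of these reads arose at that locus was not tested. By the level of library 5 alone Prnp would be at rank 3197 of the regions, and by the mean of the other 8 it stood at 326 ± 34.0 RPM. H3K4me3 reads at Prnp were not called different between tissues by edgeR (log2 difference 0.29, SE 0.27, adjusted p = 0.341). That test did not use the pairing by mouse and had the low mouse in both groups. In every mouse with both tissues the cortex value was the higher in RPM. Outside the low mouse the ranges were 463 to 597 RPM in cortex and 347 to 482 RPM in gastrocnemius, and they overlapped. All mice carry the PSAPP label, but whether that label holds for this mouse was not tested, and the cause of the difference was not tested. Leaving out both libraries of this mouse gave 197 members higher and 187 lower of 445 in H3K4me3 reads, beside 4481 and 4306 of 11642 regions. In H3K27me3 reads it gave 13 higher and 66 lower of 96, beside 608 and 531 of 1663.

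A second domain split the mice in steps. Alad (rank 497, chosen after its values were seen) encodes the heme synthesis enzyme delta-aminolevulinate dehydratase. Its cortex H3K27ac was 285 RPM in library 1, 114 and 109 RPM in libraries 6 and 8 and 198 to 244 RPM in the other 6. Cortex H3K4me3 gave the same order of steps, at 457 RPM, at 199 and 203 RPM, and at 318 to 342 RPM. In gastrocnemius library 1, of the same mouse, had 314 RPM of H3K27ac and 546 RPM of H3K4me3, the libraries of the mice of cortex 6 and 8 had 124 and 122 RPM and 222 and 208 RPM, and library 5, a mouse with no cortex library, had 102 and 209 RPM. The other 6 lay at 189 to 241 RPM and 361 to 395 RPM. The steps were not tested, since the samples fall into separate clusters.

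**Figure D5:**
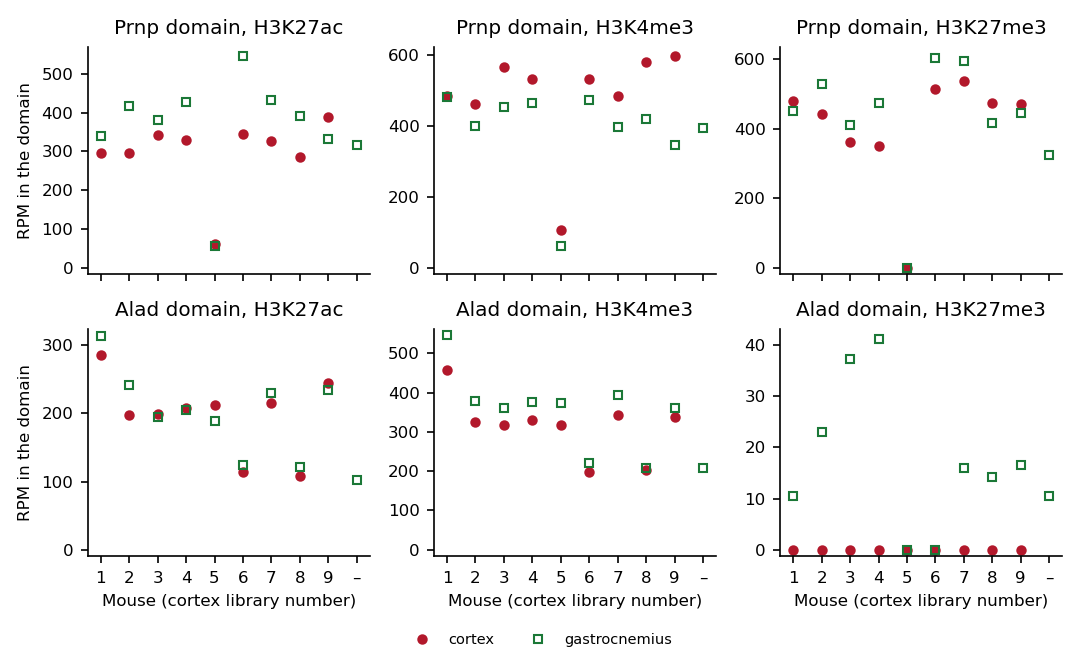
RPM of H3K27ac, H3K4me3 and H3K27me3 at the Prnp and Alad domains in cortex (filled circles) and gastrocnemius (open squares), by mouse, numbered by its cortex library, with the mouse that has no cortex library at the right. Mouse 5 is the lowest at Prnp in every panel of the upper row, and mouse 1 is the highest and mice 6 and 8 the lowest at Alad for H3K27ac and H3K4me3 in cortex.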

How the data were processed

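H3K4me3, H3K27ac and H3K27me3 were profiled in 57 libraries, 9 of cortex and 10 of gastrocnemius per mark. Before deposit, the authors mapped the reads with BWA (genome build mm10, per the submitters' processing notes), used SAMtools to filter them and called peaks in each library alone with epic2 (version not given in the sources used here), at an FDR under 0.05, windows of 200 bases and up to 2 gaps (3 for H3K27me3). No input library is named. The deposited values used are the whole-number count of reads in each peak and the score of epic2, which served only to rank peaks within a library. Reads outside peaks are not in these values, so a region without a called peak is entered at 0 RPM.

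Regions, RPM, start sites and sequences were computed with Python 3.11.15, NumPy 2.4.6, pandas 2.3.3 and SciPy 1.17.1 and the RefSeq annotation of GRCm38.p6. A region was given the share of a peak's reads that equals the share of the peak's bases inside the region. Reads were thus taken as even along a peak, and these values were rounded to whole numbers for the read tests. Reads were tested with edgeR 4.0.16 (R 4.3.3, TMM, quasi-likelihood) in regions with a peak in all 19 libraries, and peak calls with Fisher's exact test (2-sided), both adjusted by Benjamini-Hochberg over all regions tested at an FDR under 0.1. The median biological coefficient of variation was 9.13% for H3K4me3 and 22.1% for H3K27me3. DESeq2 1.42.0, other scalings, peak filters, regions, left-out libraries and a block by mouse were alternatives. The tests were tested on simulated data.

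Cortex and gastrocnemius libraries were paired by the mouse name in the deposited file names, which 9 mice share. Within pairs, deviations from the tissue means correlated by -0.11 to 0.07 for H3K27ac, -0.18 to 0.18 for H3K4me3 and -0.03 to 0.14 for H3K27me3. For each mark, the names of cortex libraries 8 and 9 and of gastrocnemius libraries 5, 6, 9 and 10 carry a run number. Libraries with a run number are thus not balanced between the tissues.

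Named were the 20 members with the highest level, the 5 widest, the 3 on each side of the limit, the 2 highest of each gene list, and the 5 highest and 5 lowest in coefficient of variation. The 5 highest in gastrocnemius H3K27ac, the 5 strongest without a gastrocnemius peak and without a start site, and the 5 called in each direction by each test were also named. Other genes of the lists, Bcl11a, Adgrb1 and Alad were named after their values were seen. The members and lists were chosen with earlier results of these data known, and the striatal list after the values at Bcl11b and Adcy5. Some domains that this rule names are not reported here.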

Additional observations from a re-analysis of the deposited data

Results flagged for a closer look

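Among 36 groups of 9 or 10 libraries, 13 held a library set apart from the others by Dixon's criterion. Chance alone flags about 1 in 20 independent groups, but these groups share libraries and 7 of the 13 are cortex H3K27ac values, which chose the members, so the count is a description. Prnp gave 6 of them, through the libraries of 1 mouse: cortex library 5 was the lowest, at 62.3 RPM for H3K27ac, 106 RPM for H3K4me3 and 0 RPM for H3K27me3, and gastrocnemius library 6 was the lowest, at 56.7, 61.6 and 0 RPM. The cause was not tested.

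Cortex library 9 gave the other 7. Its H3K27ac library, the shallowest at 3.94 M reads in peaks, had the highest share of reads in the members, 18.5%, and stood above the others by the same criterion at 5 of the 20 strongest domains: Gnao1 at 1007 RPM, the inner part of Trio at 931 RPM, Iqsec1 at 805 RPM, Adap1 at 769 RPM and Zmynd8 at 760 RPM. Its H3K4me3 library had the lowest share of reads in the members, 10.9%. Without its H3K27ac library 487 of the 500 domains were chosen again.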

How the results depend on the processing

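Of the recomputed counts, 327 stayed within 1.5 times the value given and 27 did not. The membership rested on width: ranking by reads per kb kept 29 of the 500 domains, while the other rules kept between 344 (bases covered by at least 5 libraries) and 500, leaving out 1 library kept 470 to 492, and leaving out cortex libraries 1, 2, 6 and 7 kept 421. H3K4me3 calls (8 higher and 8 lower in cortex, 16 in all) became 126 (20 and 106) when a call needed 25% of the domain covered. They became 9 (4 and 5) with the replicate block by mouse and 10 (5 and 5) without cortex libraries 1, 2, 6 and 7, 18 were higher with equally many peaks per library, 13 were lower with the top 75% of peaks, and 5 were higher in libraries without a run number. H3K27me3 calls (17 higher and 100 lower) became 0 (0 and 0) with the replicate block, where the exact sign test over 9 mice gave 105 members at an unadjusted p under 0.05, and the higher ones became 0 at 25% coverage and 11 in libraries without a run number. Leaving out 1 library gave 11 to 16 higher, with 11 without gastrocnemius library 2, 3, 6, 7 or 8. H3K27me3 reads (12 higher and 65 lower) gave 5 higher with autosomal reads as library size, and 195 calls (30 and 165) with uncalled libraries at 0 reads. The cause of these shifts was not tested. With the block in the edgeR fits, 194 members were higher and 188 lower in H3K4me3 and 10 higher and 63 lower in H3K27me3, and no other count changed by over 1.5 times. Of the recomputed tests of named domains, 117 lost their call (79 of H3K4me3 calls, 36 of H3K27me3 calls and 2 of H3K27me3 reads) and 0 changed direction. Depth limits the shallow libraries, and a mark under the peak caller's threshold is entered as 0.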

Other observations

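Chromosome X was outside the rule. Of its regions 479 carried an H3K27ac peak in all 9 cortex libraries, and 0 reached the limit of 198 RPM, with a highest level of 99.7 RPM.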
